A study of Mus musculus with 6 samples.

Results

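The 39 genes described here encode the machinery by which a beta cell turns prohormones into hormones, packs them into dense-core granules and releases the granules by regulated exocytosis. They were chosen by gene symbol, with earlier results of these data known, and the rule itself uses no measured value: prohormone convertases, granins, granule membrane proteins, SNAREs, synaptotagmins, RAB proteins with their effectors, and priming factors. All 39 symbols were present among the 23284 symbols counted. The 6 RNA sequencing libraries were of MIN6, a beta cell model line from mouse insulinomas whose founder animals expressed a viral large T antigen from the insulin promoter. In 3 libraries the cells had received a control antisense oligonucleotide (control KD), and in 3 an antisense oligonucleotide (ASO) against Paupar (Paupar KD), a long noncoding RNA transcribed beside Pax6. No other treatment or genotype is given in the labels, and the sources used here give neither dose nor time. Paupar itself was not among the counted symbols, so its knockdown could not be checked in these counts.

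Prohormones such as proinsulin are cut by the convertases PC1/3 and PC2 inside the maturing granule, and carboxypeptidase E then trims the exposed basic residues. Granins condense in the trans-Golgi network and help to form the granule, while zinc transport by ZnT8 allows insulin to crystallise. Mature granules are carried to the plasma membrane by RAB GTPases and their effectors, primed by UNC13, RIM and CAPS proteins, and fused by the SNARE proteins when a synaptotagmin senses calcium, with complexins acting on the assembled SNARE complex.

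Several genes of granule cargo are known targets of cAMP signalling, so their promoters were read first. The RefSeq promoter table (GRCm38.p6), which spans 250 bases before to 50 bases after each start, held 29 promoters of 26 of the genes, and all 29 were found unaltered in the NCBIM37 assembly (mm9). The full cAMP response element, TGACGTCA, was in 3 of the 29 (10.3%), against 3.10% of the promoters of tested genes and 1.79% of all promoters in the table. The shorter word TGACG, on either strand and also counted within the full element, was in 16 of the 29 (55.2%), against 30.7% and 20.8%. Other words scanned were GGGCGG (65.5% of the 29, against 62.1% of promoters of tested genes), TATAAA (10.3% against 6.91%) and CACGTG (6.9% against 9.9%). Genes without a promoter in the table, such as Cpe, Vgf and Slc30a8, were not examined. Among the 26 examined, the 3 genes with the full element were Chgb, Pcsk1 and Scg2, and it began 72, 78 and 68 bases before the start in the table. Their 100 bases before the start are shown with those of Chga, 5′ to 3′, because these 4 genes encode abundant granule cargo or its main processing enzyme. Capitals mark the full element, and in Chga the shorter word, which begins 44 bases before the start.
Chgb, chr2:132607278-132607377, plus strand: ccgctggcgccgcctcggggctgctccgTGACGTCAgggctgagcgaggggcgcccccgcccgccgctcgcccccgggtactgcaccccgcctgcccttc
Pcsk1, chr13:75227205-75227304, plus strand: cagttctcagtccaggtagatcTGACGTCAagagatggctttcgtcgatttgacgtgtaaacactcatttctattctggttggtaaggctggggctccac
Scg2, chr1:79436602-79436701, minus strand: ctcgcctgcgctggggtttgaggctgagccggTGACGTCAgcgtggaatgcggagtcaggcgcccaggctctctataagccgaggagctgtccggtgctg
Chga, chr12:103793051-103793150, plus strand: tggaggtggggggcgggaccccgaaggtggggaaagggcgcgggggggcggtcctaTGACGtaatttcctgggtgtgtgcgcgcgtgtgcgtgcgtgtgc
Such a match describes the letters only, and binding at these places was not measured. The starts in the promoter table can differ from those of GENCODE M1, which gives the gene positions below. There Chgb begins at 132607014, so its stretch shown lies inside that gene model. Pcsk1 begins at 75227274 and Scg2, on the minus strand, at 79436665, so their stretches lie partly inside. The Cplx2 promoter examined (54397675 to 54397974) lies far before its GENCODE M1 start, 54472713.

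The depth of the libraries was 16973622 to 28693863 counts, lowest in Paupar KD replicate 1. Levels are given as CPM, the read counts scaled to a common library size with TMM factors, and as CPM per kb of annotated exon where genes are compared with each other. The Paupar KD libraries were less alike than the controls (biological coefficient of variation 18.7% against 4.96%), and replicate 1 stood farthest from the rest. For 19 of the 37 tested genes Paupar KD replicate 1 had the highest of the 6 values and for 4 the lowest, against 33.2% and 32.6% of all tested genes. Of 14 tested glycolysis genes 11 were lowest in that library and 1 was highest, with median log2 differences from the control mean of -1.0, -0.48 and 0.03 in Paupar KD replicates 1 to 3. Beta cell markers summed to 32254 to 36421 CPM in the controls and to 38005.5 to 56265 CPM in Paupar KD, nearly all of it Ins1, Ins2, Iapp and G6pc2. Of the 10, 7 had positive log2 fold changes and 3 negative ones (Slc2a2, Neurod1 and Ucn3), with Ucn3, a marker of mature beta cells, at only 1.29 to 3.36 CPM in any library. Of 10 exocrine and duct markers 7 were at 0 in every library, and the sum of that list did not exceed 1.66 CPM. The 12 mesenchymal, endothelial and immune markers, with Col3a1, Cdh5 and Ptprc at 0, summed to 4.22 to 4.89 CPM in the controls and to 3.37 to 3.95 CPM in Paupar KD. The other endocrine markers summed to 70.9 to 80.4 CPM in the controls and to 45.1 to 130.04 CPM in Paupar KD, nearly all of it Gcg. The 9 neuronal markers, none at 0 throughout, summed to 1393 to 1480 CPM in the controls and to 1178 to 1334 CPM in Paupar KD. The log2 fold change was positive for 4 of the 8 tested, and the lower sum lay in Nefm, at 792 ± 27.6 and 563 ± 107 CPM. The part of the neuronal markers and of glycolysis in the values below was not tested.

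Of the 39 genes 37 passed the filter on low counts, with control levels from 1.38 CPM per kb for Rab3b to 4903 CPM per kb for Chga. The granin Chga led at 4903 ± 117 CPM per kb, followed by the granin Scg2 at 2727 ± 100.03 and the carboxypeptidase Cpe at 1133 ± 19.6 (SD, n = 3 throughout). Scg3, a granin that binds cholesterol-rich membrane, followed at 723 ± 15.8 CPM per kb and Chgb at 490.4 ± 12.2 CPM per kb, and none of these 5 neighbours overlapped within the spread of the controls. The convertases stood at ranks 11 and 13, Pcsk1 at 156 ± 13 and Pcsk2 at 119.6 ± 1.78 CPM per kb, below Ptprn, Syt13 and Slc30a8 at 394, 281 and 239 CPM per kb. The SNARE genes lay between 11.2 CPM per kb for Stx4a and 63.1 CPM per kb for Vamp3.

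The lengths are of GENCODE M1 gene models, which may differ from those used for the counting, so the order carries that uncertainty. Several neighbours in it could not be separated beyond their spread. Rab27a and Vamp3 were at 63.5 ± 1.92 and 63.1 ± 2.57 CPM per kb, Snap25 and Syt7 at 28.6 ± 1.13 and 28.5 ± 0.92, and Syt5 and Rph3al at 23.5 ± 0.58 and 23.3 ± 0.84. Paralogs differed in level to different degrees. Cplx2 stood at 82.5 ± 0.98 CPM per kb and Cplx1 at 2.19 ± 0.26, Rab3d and Rab3a at 33.6 ± 1.83 and 24.7 ± 1.76 and Rab3b at 1.38 ± 0.19, and the synaptotagmin Syt13 at 281 ± 0.67 against 49.6 ± 3.36 for Syt4. Among priming factors Cadps was at 20.6 ± 0.46 CPM per kb, while its paralog Cadps2 had 0 counts in every library, which allows up to 0.105 to 0.177 CPM depending on the library. Doc2b, a calcium-binding fusion factor, had 0 to 2 counts per library. It lies on chromosome 11 (75582468 to 75609551) next to Rph3al (75644501 to 75751931), on the same strand, and Rph3al was at 89.1 ± 3.20 CPM.

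**Figure D1:**
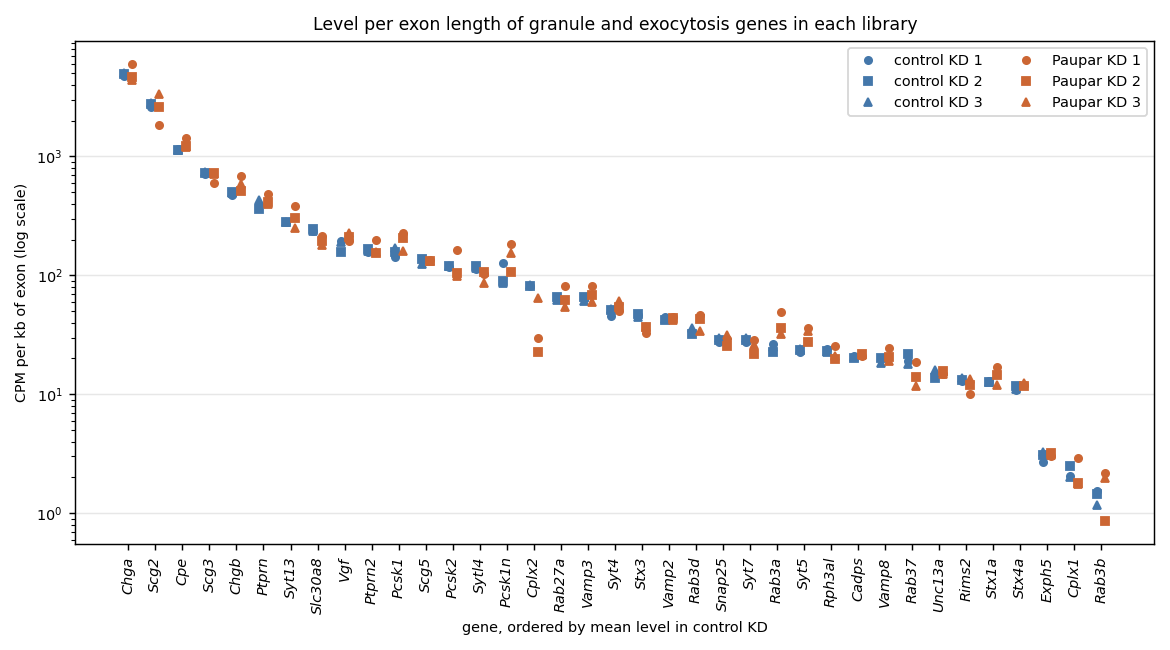
Level of each of the 37 tested genes in every library, in CPM per kb of exon on a log axis, ordered by the control KD mean; blue points are control KD and orange points Paupar KD. Chga leads at 4903 CPM per kb and Rab3b is last at 1.38, and Cplx2 shows the widest gap between blue and orange points.

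The comparison of Paupar KD with control KD asked whether levels of these genes differed between cells given the ASO against Paupar and cells given the control ASO. No gene of the set passed the test. In edgeR's quasi-likelihood test over 13039 genes, 0 of the 37 tested genes had an adjusted p under 0.05, where 6 of all tested genes did (0.0460%). At an unadjusted p under 0.05, 6 of the 37 were higher in Paupar KD and 4 lower, beside 9.63% and 8.11% of all tested genes. The 3 Paupar KD values lay above all 3 controls for 4 of the 37 (Rab3a, Syt5, Cpe and Chgb) and below them for 4 (Cplx2, Stx3, Slc30a8 and Sytl4), 10.8% each, where all tested genes gave 13.7% and 13.3%. The log2 fold change was positive for 26 and negative for 11 of the 37, with a median of 0.05, against 0.01 over all tested genes. In bulk RNA, fewer cells expressing a gene and less RNA per cell cannot be told apart.

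Some other tests, and some fits with 1 library left out, gave other counts. DESeq2 gave an adjusted p under 0.05 for 3 of the 37, Rab3a and Syt5 higher and Stx3 lower, beside 3.9% of all genes. Without Paupar KD replicate 1, edgeR called Rab3a higher and Stx3, Slc30a8 and Rab37 lower (1.91% of all genes), whereas leaving out Paupar KD replicate 3 gave calls for Rab3a, Pcsk1 and Rab3d higher and Stx3 and Cplx2 lower (10.3% of all genes). Limma-voom with sample quality weights called 9, namely Rab3a, Syt5, Pcsk1 and Rab3d higher and Cplx2, Rab37, Stx3, Slc30a8 and Syt7 lower, beside 13.3% of all genes. Rab3a and Stx3 were the genes of the set called in each of these 4 alternatives. At an adjusted p under 0.05 the remaining alternatives called 0 of the set. Among them were limma-voom without quality weights and the fits without any 1 control or without Paupar KD replicate 2.

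**Figure D2:**
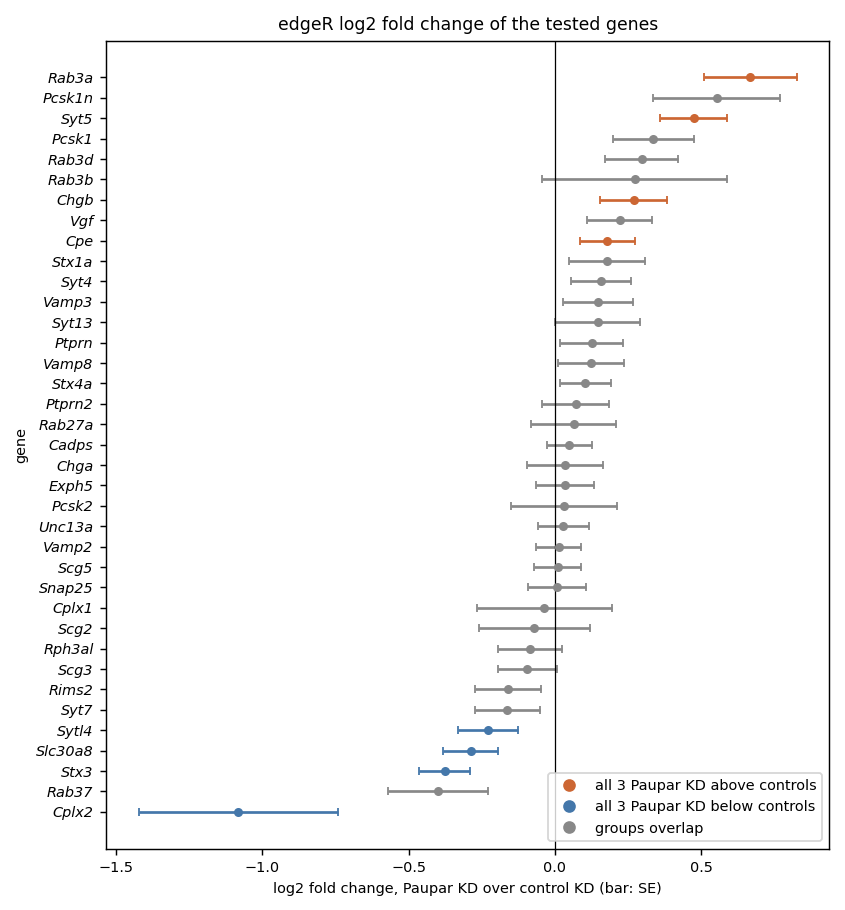
edgeR log2 fold change of Paupar KD over control KD for the 37 tested genes, with bars of 1 SE; orange and blue points are the genes whose 3 Paupar KD values lay all above or all below the controls. Rab3a is highest at 0.67 and Cplx2 lowest at -1.08, and most grey points lie within 0.2 of zero.

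Among the processing enzymes, all 4 log2 fold changes were positive and 0 passed. Pcsk1, which encodes PC1/3, was at 464, 506 and 548 CPM in control KD replicates 1 to 3 and at 733, 669 and 515 CPM in Paupar KD replicates 1 to 3. Replicates 1 and 2 of Paupar KD lay above the controls and replicate 3 among them (log2 fold change 0.34 ± 0.14 SE, edgeR adjusted p = 0.267). Pcsk2, the PC2 gene, was at 929.8, 956 and 952 CPM in the controls and at 1294, 825 and 781 CPM in Paupar KD, so that replicate 1 was the highest of all and the other two the lowest (edgeR adjusted p = 0.945). The ratio of Pcsk1 to Pcsk2 per kb was 1.305 ± 0.095 in control KD and 1.66 ± 0.30 in Paupar KD, with overlapping groups (exact permutation test, two-sided, p = 0.2, and 0.3 after adjustment over 3 ratios; the smallest p this design allows is 0.1).

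The convertase inhibitor and the carboxypeptidase differed in how far the libraries spread. Pcsk1n encodes proSAAS, a granule protein that inhibits PC1/3, and was at 279, 198 and 190 CPM in the controls and at 406, 235 and 338 CPM in Paupar KD. Its groups overlapped, with control replicate 1 above Paupar KD replicate 2 (0.55 ± 0.22 SE, edgeR adjusted p = 0.254). Cpe was at 2413, 2342 and 2341 CPM in the controls and at 2953, 2559 and 2525 CPM in Paupar KD. All 3 Paupar KD libraries lay above the controls, by 1.13-fold on average (edgeR adjusted p = 0.346). The ratio of Pcsk1 to its inhibitor gene Pcsk1n per kb was 1.604 ± 0.43 and 1.39 ± 0.47 (exact permutation test, two-sided, p = 0.7, also after adjustment over 3 ratios).

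The granins, whose products make up much of the granule matrix, did not move as a block. Scg2 was at 6501, 6840 and 6985 CPM in the controls and at 4601, 6510.1 and 8254 CPM in Paupar KD, so Paupar KD held both the lowest and the highest value (-0.07 ± 0.19 SE, edgeR adjusted p = 0.872). Chga was at 8977, 9317 and 9387 CPM in the controls and at 11338, 8800.3 and 8218 CPM in Paupar KD, the reverse order over the Paupar KD replicates (0.03 ± 0.13 SE, edgeR adjusted p = 0.909). In Paupar KD replicate 1, then, the 2 most abundant granule cargo genes of the set lay on opposite sides of their controls.

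Chgb was at 1307, 1373 and 1350.4 CPM in the controls and at 1857, 1391 and 1609.6 CPM in Paupar KD. All 3 Paupar KD values lay above the controls, replicate 2 by the smallest margin (1.21-fold, 0.27 ± 0.12 SE, edgeR adjusted p = 0.278). The 3 genes found with the full cAMP response element among those examined thus had different patterns over the Paupar KD libraries. Replicate 1 was the highest for Pcsk1 and Chgb and the lowest for Scg2. Vgf, a granin-like protein of neurotrophin-responsive cells, was at 460.5 ± 52.6 and 537 ± 41.6 CPM, with overlap (edgeR adjusted p = 0.329). Scg3 was at 1626 ± 35.4 and 1524 ± 166 CPM, with only Paupar KD replicate 1, at 1332 CPM, outside the controls. Scg5, which encodes the PC2 chaperone 7B2, varied least of this group in Paupar KD, at 208 ± 9.54 and 209 ± 2.87 CPM (0.01 ± 0.08 SE).

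**Figure D3:**
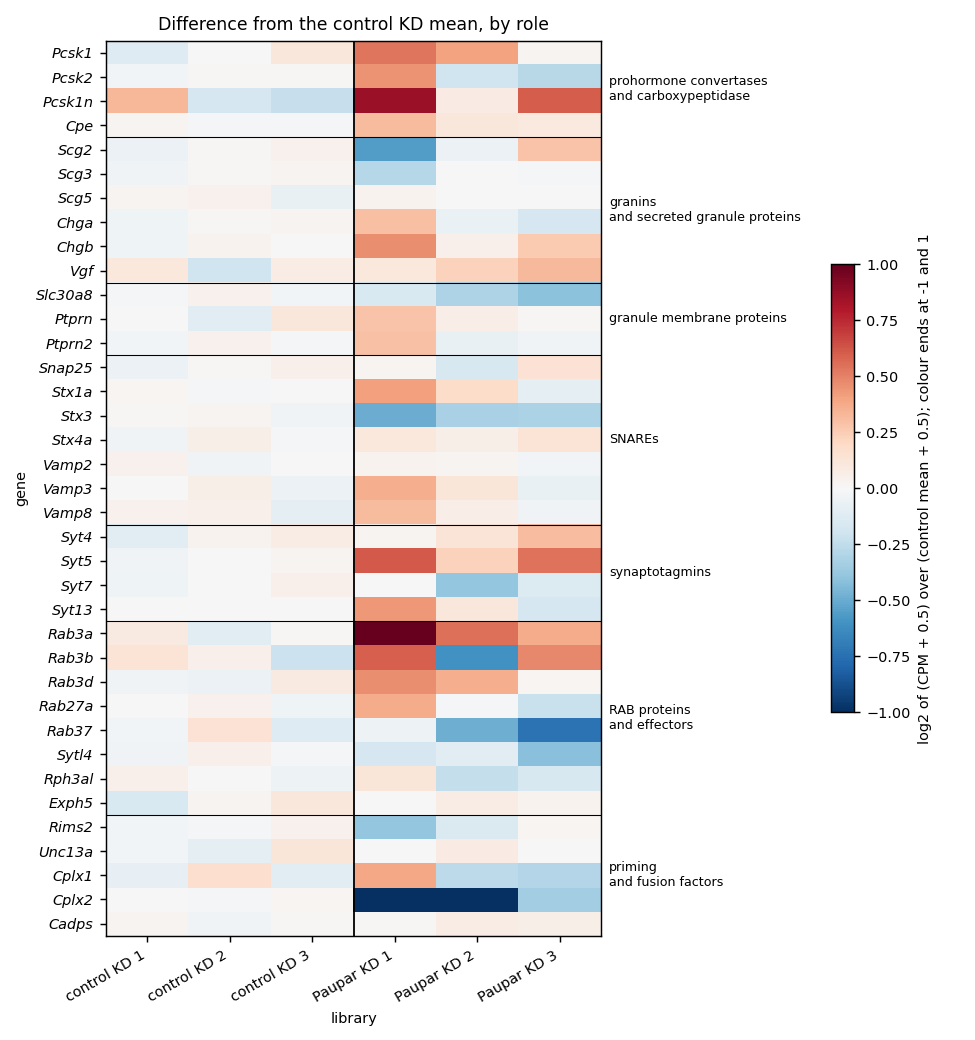
Log2 difference of each library from the control KD mean for the 37 tested genes (rows, grouped by role) in the 6 libraries (columns), with a pseudocount of 0.5 CPM; red is above and blue below the control mean, and colours end at -1 and 1. Paupar KD replicate 1 is red for most processing enzymes and blue for Scg2, Scg3, Stx3, Rims2 and Cplx2 among others, while the control columns stay pale except for Pcsk1n.

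Of the granule membrane proteins, the zinc transporter stood apart from the phosphatase-like pair. Slc30a8, which encodes the ZnT8 transporter that loads granules with zinc, was at 464, 487 and 464 CPM in the controls and at 425, 381 and 354 CPM in Paupar KD. Every Paupar KD value lay below every control, with a mean of 0.82 of the control mean (-0.29 ± 0.09 SE, edgeR adjusted p = 0.211). With Paupar KD replicate 1, 2 or 3 left out the edgeR adjusted p was 0.0378, 0.303 and 0.139. With 1 control left out it was 0.486 to 0.584. Ptprn and Ptprn2, which encode the granule proteins IA-2 and phogrin, were at 1392 ± 111 and 1519 ± 159 CPM and at 840.4 ± 22.3 and 883 ± 129 CPM (edgeR adjusted p = 0.558 and 0.772). Both had their highest value in Paupar KD replicate 1, at 1701 and 1031 CPM.

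Among the SNAREs, which form the helical bundle that drives membrane fusion, Stx3 alone had separate groups. Stx3 encodes syntaxin 3, a plasma membrane and granule t-SNARE, and was at 231, 234 and 224 CPM in the controls and at 162, 183 and 184 CPM in Paupar KD. All 3 Paupar KD libraries lay below the controls, and the mean was 0.77 of the control mean (-0.38 ± 0.09 SE, edgeR adjusted p = 0.133). It had the smallest p of the 37 genes, and its log2 fold change was -0.33 without Paupar KD replicate 1 and -0.41 without replicate 3. The other six SNARE genes had positive log2 fold changes of at most 0.18. Stx1a, the neuronal-type syntaxin of insulin exocytosis, was at 33.9 ± 0.40 and 38.4 ± 6.75 CPM, and Stx4a at 26.4 ± 1.0 and 28.4 ± 0.80 CPM.

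The core v-SNARE and t-SNARE partners lay close to their control levels. Vamp2, the vesicle SNARE of insulin granules, was at 169, 160.5 and 164 CPM in the controls and at 169, 168 and 162 CPM in Paupar KD (0.01 ± 0.08 SE, edgeR adjusted p = 0.940). Snap25 was at 194 ± 7.69 and 195 ± 20.4 CPM (0.01 ± 0.10 SE). Vamp3 and Vamp8, vesicle SNAREs of recycling and of other granule pools, were at 182 ± 7.43 and 202 ± 31.1 CPM and at 45.2 ± 2.60 and 49.3 ± 6.32 CPM, each highest in Paupar KD replicate 1.

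Synaptotagmins are membrane proteins of which some sense calcium at fusion, and Syt5 was the one with separate groups. It was at 39.9, 41.2 and 41.9 CPM in the controls and at 63.0, 48.0 and 59.8 CPM in Paupar KD. All 3 Paupar KD values lay above the controls, by 1.39-fold on average (0.47 ± 0.11 SE, edgeR adjusted p = 0.144). Syt7, a high-affinity calcium sensor of beta cells, was at 199 ± 6.39 and 178 ± 23.9 CPM, with replicates 2 and 3 of Paupar KD below the controls (edgeR adjusted p = 0.457). Syt13, an atypical synaptotagmin, was at 1059, 1056 and 1054 CPM in the controls and at 1426, 1143 and 939 CPM in Paupar KD, which spread to both sides (edgeR adjusted p = 0.614). Syt4 was at 193 ± 13.1 and 216 ± 21.3 CPM.

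The RAB GTPases, which tether granules to motors and to the membrane, gave values in both directions. Rab3a, a RAB3 of dense-core granules, was at 58.6, 50.8 and 55.6 CPM in the controls and at 110.1, 80.9 and 71.3 CPM in Paupar KD. All 3 Rab3a values in Paupar KD lay above the controls (1.59-fold, 0.67 ± 0.16 SE, edgeR adjusted p = 0.143). Its paralog Rab3d was at 138, 136 and 149.98 CPM in the controls and at 195, 182 and 143 CPM in Paupar KD, where replicate 3 lay among the controls (edgeR adjusted p = 0.270). Rab3b was at 4.86 ± 0.67 and 5.88 ± 2.48 CPM, the lowest level of the family. Rab37, another granule RAB, was at 102, 115 and 95.0 CPM in the controls and at 100.5, 73.9 and 62.2 CPM in Paupar KD. Only replicates 2 and 3 of Paupar KD lay below its controls (0.757 of the control level, edgeR adjusted p = 0.276). Its log2 fold change was -0.40 over all libraries, -0.62 when Paupar KD replicate 1 was left out (edgeR adjusted p = 0.0333) and -0.26 when replicate 3 was left out (edgeR adjusted p = 0.258).

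Rab27a and its effectors showed small differences. Rab27a, which docks granules at the actin cortex, was at 189 ± 5.71 and 197 ± 42.2 CPM, and its value ran from 162 to 244 CPM within Paupar KD (edgeR adjusted p = 0.842). Its effector gene Sytl4, which encodes granuphilin, was at 579.8, 615 and 589 CPM in the controls and at 528, 549 and 445 CPM in Paupar KD. Each Paupar KD library lay below the controls, with a mean of 0.85 of the control mean (-0.23 ± 0.10 SE, edgeR adjusted p = 0.287). Rph3al, which encodes the RAB3 and RAB27 effector Noc2, was at 89.1 ± 3.20 and 84.0 ± 11.5 CPM, and Exph5, which encodes the RAB27 effector Slac2-b, at 31.9 ± 2.98 and 32.6 ± 0.89 CPM.

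As a ratio of means, the widest gap of the 37 tested genes was in the complexins. Cplx2, which encodes complexin 2, a small protein that binds the assembled SNARE complex, was at 404, 403 and 412 CPM in the controls and at 146, 111 and 319 CPM in Paupar KD. All 3 Paupar KD libraries lay below the controls, 2 of them at well under the level of the third, and the mean was 0.472 of the control mean. With that spread the difference did not pass (log2 fold change -1.08 ± 0.34 SE, edgeR adjusted p = 0.197). Leaving out Paupar KD replicate 3 gave a log2 fold change of -1.66 (edgeR adjusted p = 0.00190), and leaving out replicate 1 or 2 gave -0.93 and -0.81 (edgeR adjusted p = 0.272 and 0.299). Paupar KD replicate 2 was farthest from the controls and replicate 3 nearest.

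Its paralog Cplx1 was at 4.52, 5.45 and 4.43 CPM in the controls and at 6.43, 3.91 and 3.82 CPM in Paupar KD (adjusted p = 0.951, edgeR). Replicate 1 of Paupar KD lay above the Cplx1 controls and the other two below them. The ratio of Cplx2 to Cplx1 per kb was 38.0 ± 4.50 in control KD and 19.9 ± 14.9 in Paupar KD, with overlap (exact permutation test, two-sided, p = 0.2, and 0.3 after adjustment). The tested priming factors of the set, Unc13a, Cadps and Rims2, had log2 fold changes of 0.03, 0.05 and -0.16. Unc13a, which opens syntaxin 1 for SNARE assembly, was at 126 ± 9.72 and 129 ± 4.21 CPM, and Cadps, which encodes CAPS1, at 114 ± 2.52 and 118 ± 2.62 CPM. Rims2, the RIM protein that links granules to calcium channels, was at 70.2, 70.7 and 73.5 CPM in the controls and at 54.5, 64.7 and 72.5 CPM in Paupar KD, with replicate 3 among the controls (edgeR adjusted p = 0.473).

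**Figure D4:**
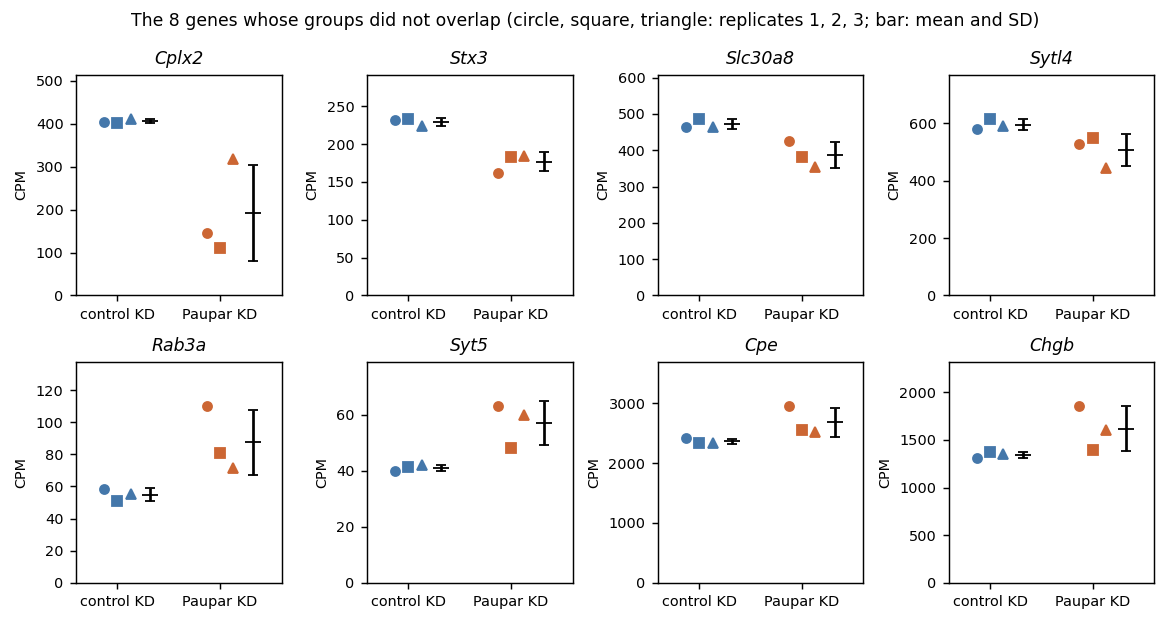
CPM from zero in every library for the 8 genes whose groups did not overlap, with replicates 1, 2 and 3 as circle, square and triangle and the mean ± SD as a bar beside them. Cplx2 lies at 403 to 412 CPM in control KD and at 111 to 319 CPM in Paupar KD, the widest gap of the 8 as a ratio. In CPM the gap of Cpe is wider, and none of the 8 passes the edgeR test.

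The wider pathway also held no edgeR call. Of 190 other genes of peptide processing, granule biogenesis, SNARE regulation and tethering found in the counts, 168 were tested. Of these 0 passed in either direction, beside 0.0460% of all tested genes. With so few calls over all genes, 0 among 168 does not set the pathway apart. At an unadjusted edgeR p under 0.05, 11 were higher and 15 lower (6.55% and 8.93%, against 9.63% and 8.11% of all tested genes). The median log2 fold change of the 168 was -0.02, with 79 positive and 89 negative values. DESeq2 called 3 higher and 3 lower among them, beside 3.9% of all tested genes. By list, the medians were 0.05 for 11 further prohormone and peptide enzymes, -0.01 for 56 granule biogenesis and sorting genes, -0.04 for 41 other SNARE genes and regulators, and -0.02 for 60 RAB, tethering, priming and motor genes.

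Some of these genes lay farther from their controls than most of the set. Cyb561, which encodes the granule cytochrome that passes electrons into the lumen for peptide amidation, was at 67.1, 72.3 and 76.5 CPM in the controls and at 172, 137 and 128 CPM in Paupar KD (2.02-fold, 1.02 ± 0.13 SE, edgeR adjusted p = 0.0588, or 0.0144 without a low-count filter). Sorl1, a sorting receptor of the trans-Golgi network and endosomes, was at 52.8 ± 4.18 and 33.7 ± 2.55 CPM, below the controls in all 3 libraries (edgeR adjusted p = 0.0691, or 0.0364 without a low-count filter). Both genes had separate groups and came closest to the threshold among the 168. Without a low-count filter 60 genes were called over all genes tested, against 6 with it.

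Over the 168 tested pathway genes, 11.3% had separate groups with higher and 12.5% with lower Paupar KD values, against 13.7% and 13.3% of all tested genes. In the list of other SNAREs and regulators these were 6 and 9 of 41 (14.6% and 21.95%). The shares were 14.3% and 14.3% for granule biogenesis and sorting, and 8.33% and 5% for RAB, tethering, priming and motor genes. The further prohormone and peptide enzymes gave 0% and 9.09%. The endosomal syntaxin Stx7 was at 87.2 ± 3.77 and 127 ± 15.4 CPM, and Stx16 at 117 ± 5.52 and 93.9 ± 6.87 CPM (edgeR adjusted p = 0.106 and 0.166). Ero1lb, the oxidase that helps proinsulin form its disulfide bonds, was at 3842 ± 128 and 3080.2 ± 241 CPM, with all 3 Paupar KD libraries below the controls (edgeR adjusted p = 0.179). Cpd, the carboxypeptidase of the trans-Golgi network, was at 187 ± 7.03 and 268 ± 92.4 CPM, with its highest value, 367 CPM, in Paupar KD replicate 3. Rac1, a GTPase of cortical actin, was at 267 ± 9.28 and 309 ± 4.26 CPM, and Syn1, the vesicle protein synapsin 1, at 218 ± 12.4 and 166 ± 37.0 CPM (edgeR adjusted p-values 0.246 and 0.248).

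**Figure D5:**
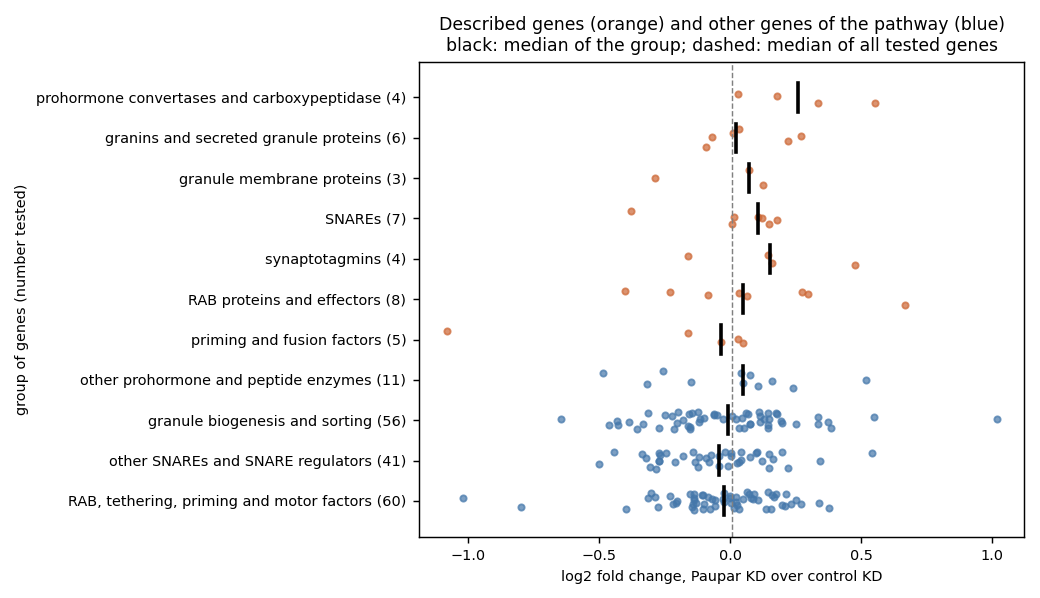
edgeR log2 fold change of the 37 tested genes by role (orange) and of the 168 other tested genes of the pathway by list (blue); points are genes, spread vertically only for visibility, black bars are group medians and the dashed line is the median of all tested genes. Medians lie between -0.04 and 0.26, with single genes such as Cplx2 at -1.08 and Cyb561 at 1.02 far from them.

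The genes are spread over the genome, with 5 of the 39 on chromosome 2 (Chgb, Pcsk2, Scg5, Snap25 and Syt13), which also carries Pax6. Pax6 itself was at 585 ± 36.4 and 398 ± 16.7 CPM (adjusted p = 0.0694, edgeR), while the log2 fold changes of those 5 genes ran from 0.01 for Snap25 to 0.27 for Chgb. In NCBIM37 the genes with separate groups lie on chromosome 13 (Cplx2, 54472713 to 54485278), chromosome 19 (Stx3, 11849609 to 11893893), chromosome 15 (Slc30a8, 52127108 to 52167353), chromosome X (Sytl4, 130470924 to 130516351), chromosome 8 (Rab3a, 73278578 to 73282576, and Cpe, 67071355 to 67171837), chromosome 7 (Syt5, 4491370 to 4498169) and chromosome 2 (Chgb, 132607014 to 132620815). In the GENCODE M1 annotation, of these 8 genes only Rab3a shares annotated exon bases with another counted gene, 29 of 2226 bases with Mpv17l2 on the opposite strand. Insulin, the main cargo, was at 16348, 17207 and 14430.1 CPM for Ins2 in the controls and at 28450, 18601 and 18696 CPM in Paupar KD (adjusted p = 0.253, edgeR). Ins1 was at 6298, 6732 and 5989.6 CPM in the controls and at 14318, 6461 and 5239 CPM in Paupar KD, with overlap (adjusted p = 0.490, edgeR).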

How the data were processed

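The authors deposited raw read counts, 1 table per library of MIN6 RNA (3 control KD, 3 Paupar KD), with no normalization. The submitters' processing notes name CASAVA 1.8.2, HISAT2, HTSeq, DESeq2 and the build mm9; the sources used here name no strand setting or annotation, so reads of overlapping genes cannot be told apart. Counts were analysed in R 4.3.3 with edgeR 4.0.16: filterByExpr (minimum count 10), TMM scaling, robust quasi-likelihood test over 13039 genes, Benjamini-Hochberg threshold 0.05. SE is the log2 fold change divided by the square root of F. CPM uses the TMM factors; CPM per kb divides by the union of exons of 1 GENCODE M1 gene model (NCBIM37). Alternatives used limma 3.58.1 and DESeq2 1.42.0. Separate cultures are not stated for the replicates, and the p-values therefore cover only variation among these 6 libraries, possibly technical. Every pair of libraries differed by more than sampling (chi-square per gene 3.46 to 93.6). Genes and lists were chosen with earlier results of these data known. Named were all 39 genes, the 2 genes of smallest p with at least 5 CPM in each of 4 pathway lists, none of which held a call, and Pax6, Ins1 and Ins2; the 3 ratios were added after values were seen and were not recomputed under the alternatives.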

Additional observations from a re-analysis of the deposited data

How the results depend on the processing

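Against 6 genes called by edgeR over all tested genes, the counts were 3 with upper-quartile factors, 60 without a low-count filter, 2 with a mean CPM of at least 1, 508 with DESeq2, 1733 with limma-voom and quality weights, 1 with the replicate block and 93 at an adjusted p under 0.1; leaving out 1 library gave 0 (without any control or Paupar KD replicate 2) to 1356 (without Paupar KD replicate 3). Against 0 genes of the described set, DESeq2 called 3 and quality weights 9, and leaving out 1 library gave 0 to 5. Against 0 of the wider pathway, the counts were 2 without a low-count filter, 6 with DESeq2, 24 with quality weights and 2 at an edgeR adjusted p under 0.1. Leaving out 1 library gave 0 to 20 pathway calls, the 20 without Paupar KD replicate 3. Over all tested genes the shares called were 3.9% with DESeq2, 13.3% with quality weights and 10.3% without Paupar KD replicate 3. The cause of these changes in count was not tested. The replicate block called 0 of the described set and 0 of the wider pathway; same-numbered libraries deviated with correlations of 0.07, -0.01 and 0.01, so the numbers were not taken as pairs.

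Of 48 named genes with a log2 fold change, 34 kept their sign in 16 alternatives, among them 24 of the 37 tested genes of the set. For the others no value with the opposite sign passed the test. With quality weights the values were -0.146 for Pcsk2, -0.00827 for Scg5, -0.0461 for Chga, -0.0383 for Ptprn2, -0.0891 for Snap25, -0.358 for Rab3b and -0.0222 for Rab27a. Pcsk2 was at -0.00592 with limma-voom and -0.00844 with the replicate block, Scg5 at -0.00405 and Snap25 at -0.00497 without a low-count filter, and Snap25 at -0.000385 with a mean CPM of at least 1. Leaving out 1 library gave -0.243 to 0.163 for Pcsk2, -0.286 to 0.118 for Scg2, -0.0283 to 0.0241 for Scg5, -0.123 to 0.126 for Chga, -0.0617 to 0.132 for Ptprn2, -0.065 to 0.0786 for Snap25, -0.0125 to 0.0339 for Vamp2, -0.0271 to 0.281 for Syt13, -0.123 to 0.187 for Rab27a, -0.0384 to 0.0937 for Exph5, -0.0248 to 0.0925 for Unc13a, -0.316 to 0.0958 for Cplx1 and -0.122 to 0.712 for Ins1.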
